A study of Mus musculus with 4 samples.

Results

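Laminins, nidogens, perlecan, agrin, nephronectin and the integrins that bind such proteins were followed in 4 single-cell RNA libraries of sorted mouse cells. The genes were chosen by symbol alone: Lama, Lamb or Lamc with a number, Itga or Itgb with a number or one of the letters v, x, l, m, d and e, and Nid1, Nid2, Hspg2, Agrn and Npnt. That gave 44 of the 31053 gene entries of the deposited matrices, namely 5 laminin alpha, 3 beta and 3 gamma chains, 5 other matrix genes, 18 integrin alpha chains, 9 integrin beta chains and Itgb3bp. Itgb3bp fits the letters of the rule but encodes a centromere protein and is no integrin.

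Cells came from fat or lung of C57BL/6 mice, with 1 library for each tissue and sorted population and no genetic change or treatment in the labels. Population P1 had the gate CD45-Ter119-Tie2+PDGFRa-CD31+CD105highSca1low, and population P2 had the gate CD45-Ter119-Tie2+PDGFRa+CD31-CD105lowSca1high. The age and sex of the mice, and how many were pooled in a library, are not given in the sources used here. With 1 library per group no difference has a replicate check, so no test was made and no p-value is given.

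Barcodes with at least 1000 UMIs (unique molecular identifiers, each standing for 1 captured transcript), at least 500 genes and at most 10% mitochondrial UMIs were kept. They numbered 1948 in P1 labelled fat, 7898 in fat P2, 652 in P1 labelled lung and 1436 in lung P2, with 6510236, 43599072, 1118642 and 3880015 UMIs. Over all pairs of libraries 3 kept barcodes were shared.

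Tissue markers of both P1 libraries went against their labels. Foxf1, which encodes a regulator of lung vessel and mesenchyme development, was at 716 CPM (UMIs of a gene scaled to a common library total) in P1 labelled fat and at 3.58 CPM in P1 labelled lung. Fabp4, a fatty acid carrier of adipose capillaries, was at 94.2 CPM in the first and at 12379 CPM in the second. Sftpc, the surfactant gene of alveolar epithelium, was at 738 CPM in the first and had 0 UMIs in the second. Of 6 lung markers at 50 CPM in 1 of these libraries, 6 were at least 4-fold lower in P1 labelled lung. Of 5 fat markers at that level, 3 were at least 4-fold higher there and 0 at least 4-fold lower. Lpl and Cd36 went the other way, higher in P1 labelled fat by less than 4-fold. Both P2 libraries matched their labels in most markers. Of 8 lung markers at 50 CPM in 1 of them, 6 were at least 4-fold higher in lung P2 and 0 at least 4-fold lower. Of 5 fat markers at that level, 3 were at least 4-fold lower in lung P2 and 1, Cd36, at least 4-fold higher. Sftpc was at 3824 CPM in lung P2 and 0.138 CPM in fat P2. Hoxc8, a gene of trunk position, was at 65.7 CPM in fat P2 and at 0 UMIs in lung P2. The 2 libraries are therefore called "P1 labelled fat" and "P1 labelled lung", and each comparison with them is also given with the 2 exchanged.

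P1 labelled lung stood apart in a further way. Its endothelial marker counts per barcode varied only 1.10 times as much as random drawing of equal cells would give, and its fibroblast marker counts 1.07 times. For endothelial markers the figure was 2.39 in P1 labelled fat, 1.63 in fat P2 and 15.6 in lung P2. For fibroblast markers it was 15.4, 10.0 and 15.7 in the same libraries. Col1a1, a fibroblast collagen gene, was found in 15.6% of its endothelial-like barcodes and in 0.131% of those of P1 labelled fat. Its barcodes were not shown to be single cells, so values from this library are given for the whole library only.

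Laminins are cross-shaped trimers of 1 alpha, 1 beta and 1 gamma chain, and they form one of the 2 networks of a basement membrane, the sheet on which endothelial and epithelial cells rest and which wraps pericytes, muscle and fat cells. Nidogens, perlecan (Hspg2) and agrin link that network to collagen IV and to cell surfaces. Integrins are receptors of 1 alpha and 1 beta chain that span the cell membrane: with beta1, the alpha3 and alpha6 chains form laminin receptors, alpha1, alpha2 and alpha11 form collagen receptors, alpha5 forms a fibronectin receptor, and alpha8 forms a receptor for nephronectin. Their RNA shows which cells carry transcripts for matrix proteins and for the receptors, while protein, deposition and adhesion were not measured.

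The genes whose levels separated the libraries most were Npnt and Itga8, high in lung P2, and Itga1, high in P1 labelled fat, and the 250 bases before the transcription start of each are shown for that reason. They come from the RefSeq promoter table of build GRCm38.p6, which holds 29 of the 44 genes, and capitals mark matches on either strand to 4 short motifs. The first was the GC box (GGGCGG), a common element of promoters without tissue restriction. The second was the TATA box, searched as TATAAA in this window. The third was an E-box, of the form CAGCTG that many helix-loop-helix proteins bind. The last was the core bound by ETS proteins, which regulate endothelial genes, searched as CGGAAG on both strands. All 3 regions lie on the minus strand, at chr3:132950292-132950541 (Npnt), chr2:12301945-12302194 (Itga8) and chr13:115101965-115102214 (Itga1).
Npnt: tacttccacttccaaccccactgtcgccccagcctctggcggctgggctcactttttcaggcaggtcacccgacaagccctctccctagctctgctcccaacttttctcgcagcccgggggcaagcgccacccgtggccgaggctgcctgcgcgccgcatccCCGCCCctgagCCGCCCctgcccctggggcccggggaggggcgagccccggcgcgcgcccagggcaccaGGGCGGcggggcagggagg
Itga8: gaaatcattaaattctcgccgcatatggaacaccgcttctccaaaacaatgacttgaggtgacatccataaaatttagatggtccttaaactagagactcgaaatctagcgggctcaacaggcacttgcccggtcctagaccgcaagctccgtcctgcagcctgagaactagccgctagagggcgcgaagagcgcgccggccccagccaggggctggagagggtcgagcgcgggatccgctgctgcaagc
Itga1: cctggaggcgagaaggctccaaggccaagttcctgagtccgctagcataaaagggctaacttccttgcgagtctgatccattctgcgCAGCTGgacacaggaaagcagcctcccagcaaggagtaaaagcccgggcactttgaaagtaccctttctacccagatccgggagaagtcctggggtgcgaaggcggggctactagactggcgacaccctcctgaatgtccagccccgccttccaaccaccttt
The promoter table holds 2 entries for Npnt, and only the first was printed and searched. That Npnt stretch held 3 GC boxes and was 74% G and C, against a median of 52% over all promoters of the table. Itga1 held 1 E-box, and Itga8 held none of the 4 motifs. The whole Itga8 stretch overlaps an exon of E030013I19Rik, a gene on the opposite strand. Of 27025 promoters of this length, 32.9% held a GC box, 12.97% the TATA box, 12.8% the E-box and 13.8% the ETS core. Of the 29 members with an entry, 12 held a GC box, 0 the TATA box, 7 the E-box and 3 the ETS core. A match is a description of letters and not a binding site. In GENCODE vM21 (GRCm38) the genes themselves span chr3:132881745-132950291 (Npnt), chr2:12106632-12301922 (Itga8) and chr13:114953096-115101964 (Itga1).

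Of the 44 genes, 24 reached 50 CPM in at least 1 library: 11 in P1 labelled fat, 12 in fat P2, 13 in P1 labelled lung and 15 in lung P2. Another 10 peaked between 10 and 50 CPM, 2 between 5 and 10, and 8 stayed under 5 CPM in every library. None of the 44 was at 0 UMIs in all 4 libraries. CPM intervals below are exact Poisson 95% intervals and intervals of shares are exact Clopper-Pearson 95% intervals, and both cover counting error only. Shares of cells were counted after each cell had been thinned to 1000 UMIs, which leaves out no kept cell. In sorted cells summed over a library, fewer cells of a type and less RNA per cell cannot be told apart.

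**Figure D1:**
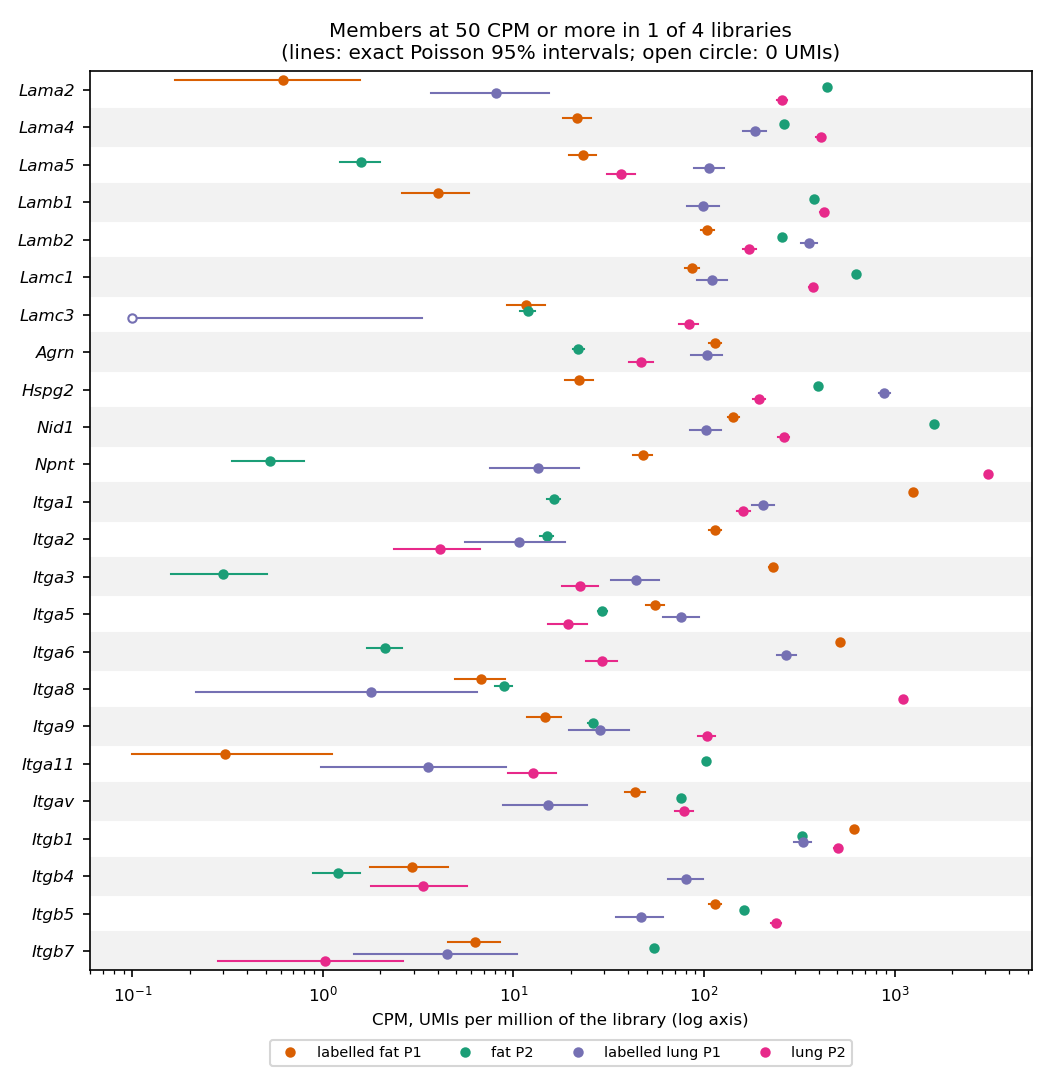
CPM (log axis) of the 24 genes at 50 CPM or more in 1 of 4 libraries, 1 point per library with its exact Poisson 95% interval as a line; an open circle at the left stands for 0 UMIs, and the lowest interval, of Itga11 in P1 labelled fat, is cut there. Npnt at 3081 CPM and Itga8 at 1107 CPM in lung P2 lie far to the right of the other 3 libraries, and Itga1, Itga2, Itga3 and Itga6 are highest in P1 labelled fat.

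Among the laminin alpha chains, Lama2 and Lama4 were each higher in both P2 libraries than in both P1 libraries. Only for Lama2 was that gap wide against both P1 libraries. Lama2, the alpha chain of muscle and stromal basement membranes, was at 439.6 CPM (interval 433 to 446) in fat P2 and at 256 CPM (240.3 to 272) in lung P2. It had 0.614 CPM in P1 labelled fat, from 4 UMIs, and 8.05 CPM in P1 labelled lung. Both P1 libraries were thus far below both P2 libraries. The gene was found in 33.8% of fat P2 cells and in 19.9% of lung P2 cells. Lama4, the alpha chain common to vessel and adipose basement membranes, was at 409 CPM in lung P2 and 262 CPM in fat P2. It was at 184 CPM in P1 labelled lung and at 21.7 CPM in P1 labelled fat, so that the 2 P1 libraries differed from each other more than the 2 P2 libraries did.

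Lama5, an alpha chain of endothelial and epithelial basement membranes, had another order. It was at 106 CPM (88.1 to 127) in P1 labelled lung, 36.9 CPM in lung P2, 23.2 CPM in P1 labelled fat and 1.58 CPM in fat P2. Lama3, an alpha chain of epithelial basement membranes, stayed below 50 CPM, with 31.3 CPM in P1 labelled lung, 17.4 CPM in P1 labelled fat, 6.19 CPM in lung P2 and 0.229 CPM in fat P2. Lama1, a chain of the early embryo, was at 2.15 CPM or less in every library.

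Lamb1 followed Lama2, and Lamb2 did not. Lamb1, a widespread beta chain, was at 429 CPM in lung P2 and 378 CPM in fat P2, against 99.2 CPM in P1 labelled lung and 3.99 CPM in P1 labelled fat. Lamb2, the beta chain of vessels, kidney and the neuromuscular junction, was at 355 CPM in P1 labelled lung, 258 CPM in fat P2, 173 CPM in lung P2 and 104 CPM in P1 labelled fat. Its spread over the 4 libraries was small beside that of Lamb1. Lamb3, a beta chain of epithelial basement membranes, was at 10.4 CPM or less.

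Lamc1, the gamma chain of most laminin trimers, was at 625 CPM (617 to 632) in fat P2 and 374 CPM in lung P2, and at 110.0 and 86.9 CPM in P1 labelled lung and P1 labelled fat. It was found in 43.8% of fat P2 cells and in 6.98% of cells of P1 labelled fat. Lamc3 was above 50 CPM in lung P2 alone, at 83.0 CPM (74.2 to 92.6). It was at 11.9 CPM in fat P2 and 11.7 CPM in P1 labelled fat, and it had 0 UMIs in P1 labelled lung, where the floor of 3 UMIs is 2.68 CPM.

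Nid1, the nidogen that bridges laminin and collagen IV, separated fat P2 from everything else. It was at 1601 CPM (1589 to 1613) in fat P2, where 72.7% of cells held it, at 261 CPM in lung P2, at 142 CPM in P1 labelled fat and at 103 CPM in P1 labelled lung. Those 3 libraries lay within 3-fold of each other and all below fat P2. Nid2, the second nidogen, was also highest in fat P2, at 42.5 CPM, and was at 20.6 CPM in P1 labelled lung, 6.96 CPM in lung P2 and 1.997 CPM, from 13 UMIs, in P1 labelled fat.

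The large proteoglycans had orders of their own. Hspg2, which encodes perlecan, was at 885 CPM (831 to 942) in P1 labelled lung, 397 CPM in fat P2, 195 CPM in lung P2 and 22.1 CPM in P1 labelled fat. It was found in 61.3% of barcodes of P1 labelled lung and in 0.975% of those of P1 labelled fat, so the 2 endothelial libraries were the 2 extremes. Agrn, which encodes agrin, was higher in both P1 libraries than in both P2 libraries, at 114 and 104 CPM in P1 labelled fat and P1 labelled lung against 46.9 CPM in lung P2 and 21.9 CPM in fat P2. The intervals of the 2 P1 libraries overlapped (106 to 122 and 85.7 to 124).

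Npnt encodes nephronectin, a basement membrane protein known from kidney and lung development, and Itga8 encodes the alpha chain of its receptor. Npnt was at 3081 CPM (3026 to 3136) in lung P2, at 47.8 CPM in P1 labelled fat, at 13.4 CPM in P1 labelled lung and at 0.528 CPM in fat P2. Itga8 was at 1107 CPM (1074 to 1141) in lung P2, 8.88 CPM in fat P2, 6.76 CPM in P1 labelled fat and 1.79 CPM, from 2 UMIs, in P1 labelled lung. Lung P2 stood alone for both genes. Npnt was found in 79.0% of lung P2 cells and Itga8 in 60.4%, and the shares in the other 3 libraries were at most 1.33% and 0.975%. An antisense gene, E030013I19Rik, overlaps Itga8 on the opposite strand; how the counting treated strand is not given in the sources used here.

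Itga1, Itga2, Itga3 and Itga6 were each highest in P1 labelled fat. Itga1, a collagen receptor chain of capillaries and smooth muscle, was at 1254 CPM (1227 to 1282) in P1 labelled fat, 205 CPM in P1 labelled lung, 161 CPM in lung P2 and 16.2 CPM in fat P2. It was found in 66.3% of cells of P1 labelled fat. Gm49395 overlaps it on the same strand, so reads of the 2 could be confused. Itga6, an alpha chain of laminin receptors in endothelium and epithelium, was at 519.6 CPM in P1 labelled fat and 271 CPM in P1 labelled lung. It was at 29.1 CPM in lung P2 and 2.11 CPM in fat P2, below both P1 libraries.

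Itga3, another laminin receptor chain, was at 229.8 CPM in P1 labelled fat, 43.8 CPM in P1 labelled lung, 22.4 CPM in lung P2 and 0.298 CPM in fat P2. Itga2, a collagen receptor chain of platelets and some endothelium, was at 114 CPM in P1 labelled fat and at 14.95 CPM or less in the other 3. Itga5, the fibronectin receptor chain, varied less: it was at 76.0 CPM in P1 labelled lung, 55.5 CPM in P1 labelled fat, 29.3 CPM in fat P2 and 19.3 CPM in lung P2.

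The remaining alpha chains above 50 CPM were each highest in a P2 library. Itga11, a receptor chain for fibrillar collagen on fibroblasts, was at 103 CPM in fat P2, 12.6 CPM in lung P2, 3.58 CPM in P1 labelled lung and 0.307 CPM in P1 labelled fat, the last from 2 UMIs. Itga9, a receptor chain for tenascin and related ligands, was at 103 CPM (93.5 to 114) in lung P2 and between 14.6 and 28.6 CPM in the other 3 libraries. Itgav, the chain shared by the receptors that bind RGD motifs, was at 78.6 CPM in lung P2 and 76.1 CPM in fat P2, whose intervals overlapped (70.0 to 87.9 and 73.5 to 78.7). It was at 43.5 CPM in P1 labelled fat and 15.2 CPM in P1 labelled lung.

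Among the beta chains, Itgb1, the partner of most matrix-binding alpha chains, was present in every library at similar levels. It was at 609 CPM in P1 labelled fat, 505 CPM in lung P2, 329 CPM in P1 labelled lung and 328 CPM in fat P2. Itgb5, a partner of alpha v, was at 239 CPM in lung P2, 162 CPM in fat P2, 114 CPM in P1 labelled fat and 46.5 CPM in P1 labelled lung. Itgb1 thus had a narrow range while the alpha chains that pair with it differed widely between libraries.

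A pair of beta chains were each above 50 CPM in 1 library. Itgb4, the partner of alpha6 in hemidesmosomes and in some endothelium, was at 80.5 CPM (64.7 to 98.9) in P1 labelled lung and at 1.19 to 3.35 CPM in the other 3. Itgb7, best known as the partner of alpha4 and alpha E on lymphocytes, was at 54.9 CPM (52.7 to 57.1) in fat P2 and at 1.03 to 6.30 CPM in the other 3. Neither alpha partner of Itgb7 was present with it: in fat P2 Itga4 was at 0.642 CPM and Itgae at 0.183 CPM. Ptprc, the leukocyte marker CD45, was at 1.33 CPM in fat P2.

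Leukocyte integrins were close to absent from these CD45- cells. Itgal, Itgam, Itgax, Itgad, Itgae, Itgb2 and the neutrophil gene Itgb2l did not exceed 3.58 CPM in any library. Itga4, carried by lymphocytes and some vessel cells, was at 22.7 CPM in P1 labelled fat, 11.9 CPM in lung P2 and 5.36 CPM in P1 labelled lung. Ptprc was at 4.45, 18.8 and 4.38 CPM in P1 labelled fat, P1 labelled lung and lung P2. Of 7 leukocyte genes listed, Srgn, which endothelium also carries, supplied most of the sum, with 516 of 549 CPM in P1 labelled fat and 645 of 805 CPM in P1 labelled lung.

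Platelet integrins were low as well. Itga2b, the platelet alpha chain, was at 36.7 CPM in P1 labelled lung, 26.0 CPM in fat P2, 3.61 CPM in lung P2 and 2.61 CPM in P1 labelled fat. Its partner Itgb3 was at 35.0 CPM in fat P2 and at 12.5 CPM or less in the others. Over 6 platelet marker genes the sum was 33.1 CPM in P1 labelled lung, 14.1 CPM in P1 labelled fat, 0.528 CPM in fat P2 and 0.515 CPM in lung P2. In fat P2, where Itga2b and Itgb3 were both above 20 CPM, the platelet chemokine Pf4 was at 0.0917 CPM, from 4 UMIs. The last beta chains were Itgb6, at 9.52 CPM or less, and Itgb8, at 17.0 CPM in lung P2 and 1.70 CPM or less elsewhere.

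The first comparison asks how the 2 sorted populations of fat differ, as labelled. Differences between libraries are log2 ratios after adding 10 CPM to both, and a gene is called at 4-fold or more where 1 of the 2 libraries has 50 CPM. Of 18 members at that level, 4 were higher in P1 than in P2 and 7 were lower, against 12.4% of all 4727 genes higher and 10.1% lower. The 4 higher were all integrin alpha chains: Itga1 (log2 ratio 5.59), Itga6 (5.45), Itga3 (4.54) and Itga2 (2.32). The 7 lower were Lama2 (-5.40), Lamb1 (-4.79), Hspg2 (-3.66), Itga11 (-3.45), Nid1 (-3.40), Lama4 (-3.10) and Lamc1 (-2.71). The median log2 ratio was -0.96 over these members and 0.38 over all genes tested. Itgb7 (-1.99) and Agrn (1.96) lay just short of the 4-fold limit. When the libraries were scaled by TMM instead of by their sums, 30.8% of the member calls and 45.1% of all calls were higher, against 36.4% and 55.0% here.

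With the P1 libraries exchanged, 4 members were higher than fat P2 and 5 lower of 18, against 9.97% and 9.46% of all genes. Itga6 (4.54) and Itga1 (3.03) were higher again, now with Lama5 (3.33) and Itgb4 (3.01). Lama2 (-4.64), Nid1 (-3.84), Itga11 (-3.06) and Lamc1 (-2.40) were lower again, now with Itgb7 (-2.16). Hspg2 turned to 1.14 and Itga2 to -0.27, and Lama4 (-0.49) and Lamb1 (-1.83) were no longer called.

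In the libraries labelled lung, 20 members were at the required level, of which 3 were higher in P1 and 6 lower, against 8.45% and 11.8% of all 4791 genes. Higher were Itga6 (log2 ratio 2.84), Itgb4 (2.76) and Hspg2 (2.13). Lower were Npnt (-7.04), Itga8 (-6.57), Lama2 (-3.88), Lamc3 (-3.22), Itgb5 (-2.14) and Lamb1 (-2.01). The median was -1.19 over the members and -0.12 over all genes tested. Lamb1, at 99.2 against 429 CPM, was the member nearest to the 4-fold limit among those called, and fell short of it under TMM scaling (-1.94), median-of-ratios scaling (-1.88) and in all deposited barcodes (-1.79).

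With the P1 libraries exchanged, 4 members were higher than lung P2 and 8 lower of 20, against 8.9% and 10.3% of all genes. Higher were Itga6 (3.76), Itga2 (3.14), Itga1 (2.89) and Itga3 (2.89). Lower were Itga8 (-6.06), Npnt (-5.74), Lamb1 (-4.97), Lama2 (-4.65), Lama4 (-3.73), Hspg2 (-2.67), Itga9 (-2.20) and Lamc3 (-2.10). Hspg2 changed sign against the labelled comparison, and Itgb4 was at -0.047.

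Across the 4 pairings of a P1 with a P2 library, Itga6 was called higher in P1 in each and Lama2 lower in each. These pairings share libraries and are not independent of one another. Itga1 was called higher in 3 of the 4, the exception being the libraries labelled lung, at 0.33. Itgb1 was never called, with log2 ratios from -0.60 to 0.87.

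**Figure D2:**
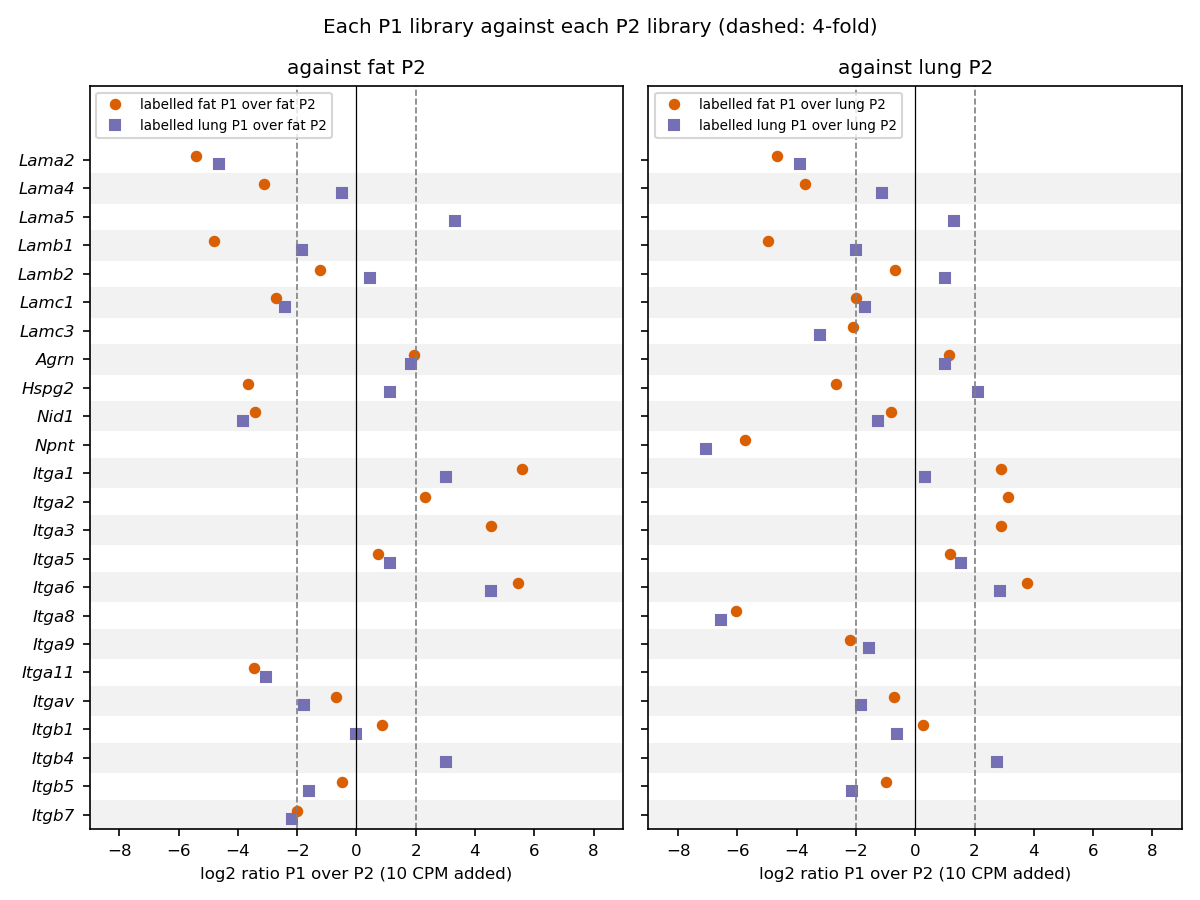
Log2 ratios of P1 over P2 (10 CPM added to both) against fat P2 on the left and lung P2 on the right, for P1 labelled fat (circles) and P1 labelled lung (squares), where 1 of the 2 libraries has 50 CPM or more; dashed lines mark 4-fold. Itga6 lies right of the upper line and Lama2 left of the lower line in every pairing, while Hspg2 lies on opposite sides of 0 for the 2 P1 libraries.

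The comparison of the 2 P2 libraries does not involve the doubtful labels and asks how the PDGFRa+ cells of lung and fat differ. Of 17 members, 4 were higher in lung and 3 lower, against 8.24% and 4.79% of all 4323 genes. Higher were Npnt (8.20), Itga8 (5.89), Itga1 (2.70) and Lamc3 (2.09), and lower were Nid1 (-2.57), Itgb7 (-2.56) and Itga11 (-2.32). Between fibroblast-like cells alone, Itga1 was at 1.09 and was no longer called. Lamc3 fell short of 4-fold under both other scalings, at 1.85 with TMM and 1.86 with median-of-ratios, and at 1.64 with at most 5% mitochondrial UMIs. The median was 0.18 over the members and 0.15 over all genes. Lama2, Lama4, Lamb1, Lamb2, Lamc1, Hspg2, Itgav, Itgb1 and Itgb5 were all within 1 log2 unit of equal, with values from -0.99 (Hspg2) to 0.62 (Lama4). Itga9 was at 1.65. Under TMM scaling 50% of member calls and 48.1% of all calls were higher in lung, against 57.1% and 63.2% here.

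Between the 2 P1 libraries, labelled lung over labelled fat, 4 of 16 members were higher and 3 lower, against 5.28% and 5.71% of all 4605 genes. Higher were Hspg2 (4.80), Lamb1 (2.96), Itgb4 (2.81) and Lama4 (2.62), and lower were Itga2 (-2.58), Itga1 (-2.56) and Itga3 (-2.16). Exchanging the 2 libraries turns every sign. Markers of other cells moved with this comparison: 12 fibroblast genes summed to 1678 CPM in P1 labelled lung and 201 CPM in P1 labelled fat, and 10 mural genes to 624 and 140 CPM, with 0 genes of either list at 0 UMIs. The 5 erythroid genes summed to 5432 CPM and 209.8 CPM, with 1 at 0 UMIs in each library. The 7 lymphatic endothelial genes summed to 1267 and 852 CPM, and among them Ccl21a was at 969 and 35.9 CPM. The part of these cells in the member differences was not tested. The 11 lung epithelial genes summed to 483 CPM in P1 labelled lung, with 4 at 0 UMIs, and 1930 CPM in P1 labelled fat, with 0 at 0 UMIs. The median was 0.09 over the members and -0.31 over all genes. Median-of-ratios scaling gave 66.7% of member calls and 59.0% of all calls higher, against 57.1% and 48.0% here. Agrn (-0.12), Lamc1 (0.31) and Nid1 (-0.43) were at similar levels in the 2 P1 libraries.

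Partner genes outside the family, from lists drawn up by role, stood beside these values as follows. Over all genes, 12.4% were higher in P1 and 10.1% lower in the comparison labelled fat, and 8.45% and 11.8% in that labelled lung. In P2, 8.24% were higher in lung and 4.79% lower, and between the P1 libraries 5.28% and 5.71%. With the P1 libraries exchanged the shares were 9.97% and 9.46% against fat P2, and 8.9% and 10.3% against lung P2. Each list is small, and nothing is read from its counts. Of 19 other basement membrane genes, 9 were tested in the comparison labelled fat, and 0 were called higher in P1 and 4 lower: Smoc2 (-5.13), Col15a1 (-4.07), Col18a1 (-2.79) and Sparc (-2.54). The 2 main collagen IV chains were not among them, with Col4a1 at 846 CPM in P1 labelled fat and 796 CPM in fat P2. In the libraries labelled lung 0 were higher and 2 lower of 9, in P2 0 were higher in lung and 1 lower of 11, and between the P1 libraries 2 were higher and 0 lower of 8. Under that exchange the counts were 0 and 1 of 9 against fat P2, and 1 and 4 of 10 against lung P2.

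Laminin receptors that are not integrins were fewer. Of 12, 6 were tested in the comparison labelled fat, and Mcam (4.83), an adhesion protein of endothelium and pericytes, and Bcam (4.60), a receptor for Lama5 laminins, were higher in P1, with 0 lower. In the libraries labelled lung Bcam (3.08) was higher, and Sdc4 (-2.97) and Cd44 (-2.39) lower, of 7 tested. In both P2 and P1 tissue comparisons 0 of 5 were called. After exchange of the P1 libraries 2 were higher and 0 lower of 6 against fat P2, and 2 higher and 1 lower of 7 against lung P2. Bcam was called higher in P1 in each pairing.

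Integrin ligands outside the laminins numbered 18. In the comparison labelled fat 3 were higher in P1 and 4 lower of 12, with Icam2 (6.84), an endothelial ligand of leukocyte integrins, above and fibronectin, Fn1 (-7.45), fibrillin, Fbn1 (-6.42), and periostin, Postn (-5.58), below. In the libraries labelled lung 4 were higher and 4 lower of 14, in P2 3 were higher in lung and 1 lower of 12, and between the P1 libraries 2 were higher and 0 lower of 11. After exchange of the P1 libraries the counts were 4 and 5 of 13, and 2 and 8 of 14.

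Adaptors that tie integrins to actin and to signalling numbered 23. In the comparison labelled fat 5 were higher in P1 and 1 lower of 17, among them Parvb (4.45), Vcl (2.22) and Ptk2 (2.16) above and Zyx (-2.42) below. In the libraries labelled lung 3 were higher and 2 lower of 16, in P2 2 were higher in lung and 0 lower of 14, and between the P1 libraries 0 of 17 were called. Using the other P1 library the counts were 2 and 0 of 16, and 2 and 1 of 17.

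Within each library, cells were clustered on other genes, with the 44 members left out, to see which cells carried them. Clusters are named from marker lists and by their leading genes. A cluster set against the rest is a description and not a test, because its cells were grouped by their own expression.

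In P1 labelled fat, 1526 of 1948 cells (78.3%) fell in endothelial-like clusters, in which Pecam1, the CD31 gene of the gate, was found in 82.0% of cells. Of these, 426 cells in 2 clusters carried all 10 aerocyte markers at 100 CPM or more and are called aerocyte-like, after the large thin capillary cells of the alveolus. A further 1030 cells in 4 clusters carried all 8 general capillary markers and are called general-capillary-like, after the capillary cells that can divide and renew the bed. Median UMIs were 3709 and 3138.5 per cell. Pecam1 was found in 0.0795% of the fibroblast-like cells of fat P2, another library, as a level in cells that lack it. In P1 labelled fat it was also found in 79.1% of the 402 cells whose clusters were left unnamed. Those cells are therefore not read as lacking it. Aerocytes are known from lung, and the library is labelled fat. A cluster of 30 cells led by Cdkn1c carried both lists in full and was put in neither group; its Itga6 was at 314 CPM, its Itga3 at 309 CPM and its Itgb5 at 184 CPM, between the 2 groups.

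The 2 kinds of capillary cell differed in their integrins. Of 12 members at the required level, 3 were at least 4-fold higher in the aerocyte-like cells and 2 at least 4-fold lower, against 2.61% and 2.97% of all 4374 genes; the clusters were built from genes of these cells, so nothing is read from those shares. Itgb5 was at 392 CPM (363 to 424) in the aerocyte-like cells and 4.77 CPM in the general-capillary-like cells. Itga3 was at 553 against 101 CPM, and Itga4 at 78.0 against 0.298 CPM, the last from 1 UMI. In the other direction, Itga6 was at 10.97 CPM (6.5 to 17.3) in the aerocyte-like cells and at 779.5 CPM (749.9 to 810) in the general-capillary-like cells. Itga5 was at 4.27 against 74.3 CPM.

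The 2 laminin receptor alpha chains were thus highest in different capillary cells of 1 library, though Itga3 was present in both kinds. Itga6 was found in 0.469% of aerocyte-like cells and 49.3% of general-capillary-like cells, and Itga3 in 41.5% and 8.93%. Itga1 was present in both, at 460.0 and 1679 CPM. Itgb1, the shared beta chain, was at 594 and 617 CPM, with overlapping intervals. Of the matrix genes, Lamc1 was at 165 against 50.1 CPM and Nid1 at 244 against 112 CPM, higher in the aerocyte-like cells, while Agrn was at 42.7 against 123 CPM. Lamb2 did not separate them, at 90.8 and 94.5 CPM.

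The same cells, split into the single clusters that make up the groups, showed this division in each cluster. Itga6 was between 628 and 958 CPM in the 4 general-capillary-like clusters and at 9.82 and 15.8 CPM in the 2 aerocyte-like ones. Itgb5 was between 1.09 and 11.98 CPM in the first and at 389 and 407 CPM in the second. A large-vessel-like cluster of 40 cells, led by Slc6a2, held Itga6 at 448 CPM and Itgb3 at 56.0 CPM (28.0 to 100.2), the highest Itgb3 among the endothelial-like clusters of that library.

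**Figure D3:**
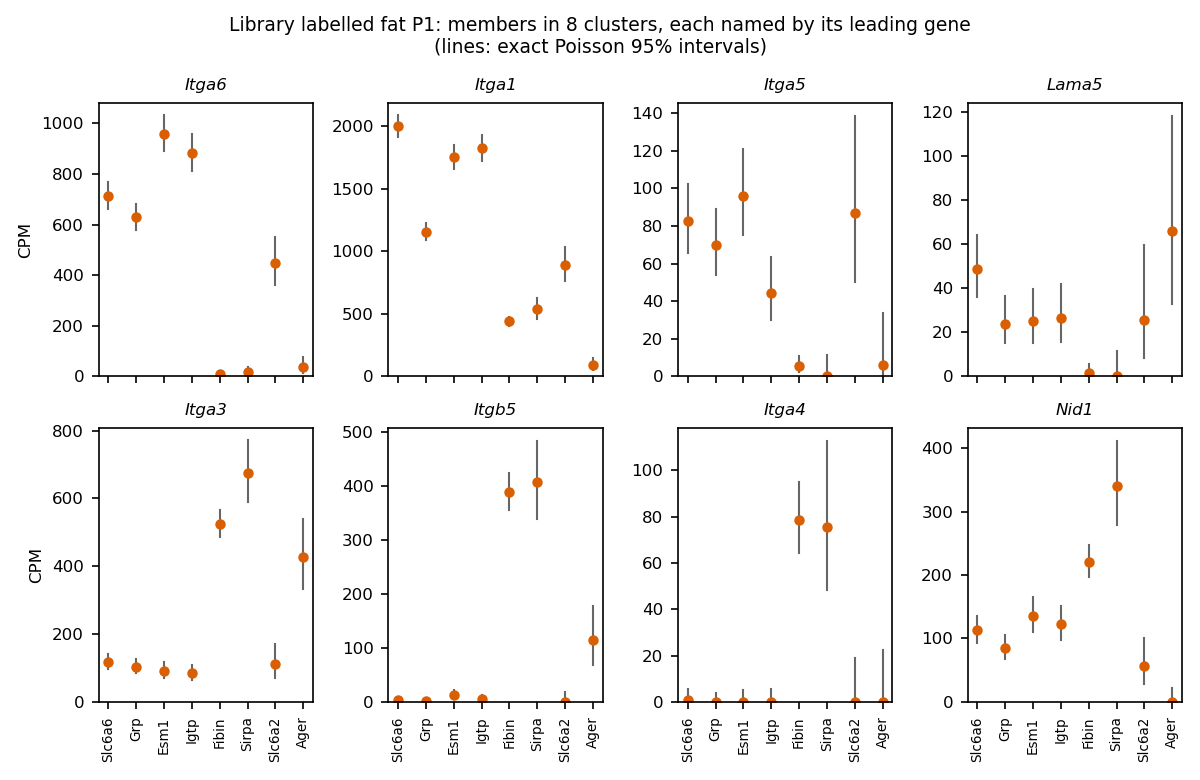
CPM of 8 members in 8 clusters of P1 labelled fat, each cluster named by its leading gene, with exact Poisson 95% intervals as lines; Slc6a6, Grp, Esm1 and Igtp lead the general-capillary-like clusters, Fibin and Sirpa the aerocyte-like ones, Slc6a2 the large-vessel-like one and Ager the lung epithelial-like one. Itga6 and Itga5 are high in the first 4 clusters, and Itgb5 and Itga4 in the fifth and sixth.

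Epithelial laminin genes of this library sat in 20 lung epithelial-like cells led by Ager, a gene of flat alveolar epithelial cells. In that cluster Lama3 was at 608 CPM and Lamb3 at 391 CPM. The same 20 cells held Npnt at 878 CPM, Agrn at 709.8 CPM, Hspg2 at 481 CPM and Itgb6 at 367 CPM. A further 18 cells, led by Inmt, Gsn and Acta2 and left unnamed, held Npnt at 1788 CPM, Itga8 at 516 CPM, Lama4 at 324 CPM and Lamb1 at 264 CPM. In the 1526 endothelial-like cells Npnt had 3 UMIs and Itga8 had 0, so the Npnt of this library, 47.8 CPM in all, lay in other clusters. Sftpc, a gene that endothelium should lack, was found in 14.7% of the endothelial-like cells.

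In lung P2, 1310 of 1436 cells (91.2%) were fibroblast-like. Clusters 1 to 4, with 1123 cells, carried markers of alveolar fibroblasts. Npnt was at 4522, 2109, 4736 and 5638 CPM in these 4 clusters and Itga8 at 1517, 903, 1659.6 and 1849 CPM, so cluster 2, led by Mt2 and Mmp3, was lowest in both. Together the 4 clusters held Npnt in 92.1% and Itga8 in 72.8% of cells.

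The other fibroblast-like cells differed. Cluster 5, with 167 cells led by Serpinf1, Dcn and Pi16, genes of the connective tissue around large vessels and airways, held Npnt at 405 CPM and Itga8 at 343 CPM, with shares of 21.0% and 19.2% of cells. Lama2 was highest there, at 634 CPM, and so was Lamc3, at 324 CPM against 20.6 to 82.1 CPM in clusters 1 to 4. Itga11 was at 54.8 CPM there and at 16.4 CPM or less in every other cluster. Cluster 9, with 20 cells led by Hhip, held Npnt at 147 CPM and Itga8 at 49.1 CPM, and kept Lama4 at 573 CPM while Lamb1 was at 16.4 CPM.

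Npnt was also counted in cells that should carry little of it. It was at 645 CPM in the 27 endothelial-like cells, where 25.9% of cells held it after thinning, and at 469.7 CPM in 7 B-like cells. Median UMIs were 5022 in the endothelial-like and 2161 in the fibroblast-like cells. Npnt in clusters 5 and 9, with 21.0% (15.1 to 27.9) and 20% (5.73 to 43.7) of cells, was not above the 25.9% (11.1 to 46.3) of the endothelial-like cells and is not read as expression there. Itga8 was in 1 of the 27 endothelial-like cells, 3.70% (0.0937 to 19.0), an interval that overlapped that of the 19.2% (13.5 to 26.0) in cluster 5. With cells thinned to 2000 UMIs it was in 4 of 21 endothelial-like cells. Sftpc, which fibroblasts should lack, was found in 60.2% of the fibroblast-like cells.

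The mural-like cells of lung P2, the pericytes and smooth muscle around vessels, held integrins that were low in the fibroblast-like cells. In these 72 cells Itga1 was at 1872 CPM (1661 to 2103), found in 72.2% of cells, against 43.8 CPM and 3.97% in the fibroblast-like cells. Itga4 was at 210.2 CPM there and at 4.69 CPM or less in every fibroblast-like cluster. Itga6 was at 131 CPM there and at 5.37 CPM or less in those clusters. Itgb1 was at 939 CPM in the mural-like cells. Of the 624 Itga1 UMIs of lung P2, 285 came from the mural-like cells, which were 5.01% of the library, 190 from the endothelial-like and 148 from the fibroblast-like cells. Between fibroblast-like cells alone, Itga1 was at 43.8 CPM in lung and 15.3 CPM in fat. Npnt was counted in 54.2% and Itga8 in 22.2% of the mural-like cells. Sftpc, the surfactant gene of alveolar epithelium, was found in 69.4% of them, and Npnt in 42.9% of the 7 B-like cells. The Npnt share of the mural-like cells is therefore not read as expression there. Itga8 was in 1 of the 27 endothelial-like and in 0 of the 7 B-like cells, too few cells to set a background level. Whether its share in the mural-like cells is expression was not tested.

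Among the small classes, the 27 endothelial-like cells held Itga1 at 801 CPM, Itga6 at 371 CPM and Itga3 at 164 CPM. The 20 lung epithelial-like cells held Lamb3 at 246 CPM, Lama3 at 149.8 CPM and Itgb6 at 74.9 CPM. The 7 B-like cells held Itga4 at 376 CPM, Itgal at 188 CPM, Itgb2 at 141 CPM and Itgb7 at 141 CPM, from 3 to 8 UMIs each. Itgal and Itgb2 were at 1.15 CPM or less in every other cluster of lung P2.

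**Figure D4:**
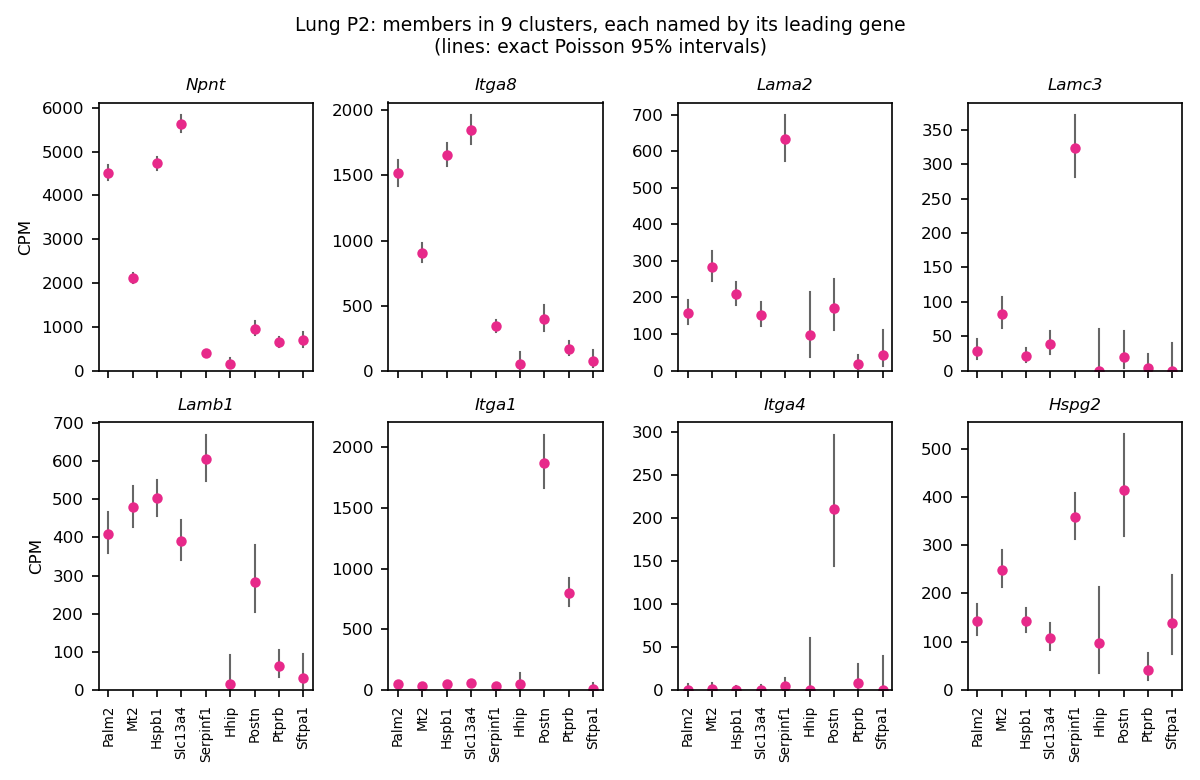
CPM of 8 members in 9 clusters of lung P2, each named by its leading gene, with exact Poisson 95% intervals as lines; Palm2, Mt2, Hspb1 and Slc13a4 lead the alveolar-fibroblast-like clusters, Serpinf1 and Hhip the other fibroblast-like ones, Postn the mural-like, Ptprb the endothelial-like and Sftpa1 the epithelial-like one. Npnt and Itga8 are high in the first 4 clusters, Lama2 and Lamc3 in the Serpinf1 cluster, and Itga1 and Itga4 in the Postn cluster.

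Npnt and Itga8, ligand and receptor chain, were mostly found together in lung P2. After thinning to 1000 UMIs, 805 cells held both, 329 held Npnt alone, 63 held Itga8 alone and 239 held neither. Npnt was thus in 92.7% of the 868 cells with Itga8 and in 57.9% of the 568 cells without it. Within the fibroblast-like cells the shares were 93.3% of 849 and 61.0% of 461 cells. Over all 778 cells with at least 2000 UMIs, thinned to that number, the shares were 93.8% of 582 and 41.3% of 196 cells. The fibroblast-like class pools alveolar-fibroblast-like cells, with Npnt in 92.1% and Itga8 in 72.8% of them, and clusters where both were rarer. All these shares thus mix kinds of cell, and the pairing within alveolar-fibroblast-like cells alone was not counted. Npnt was also counted in cells that should carry little of it. In fat P2 77 cells held Itga8, and 0 of them held Npnt.

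In fat P2, 7550 of 7898 cells (95.6%) were fibroblast-like, in 13 clusters, and several members varied among these in the same or the opposite order. Itgb7 was at 141 CPM in cluster 11, led by Akr1c18 and Dmkn, and at 111 CPM in cluster 1, led by Krtdap and Ptx3. It was at 1.97, 1.58 and 3.46 CPM in clusters 8, 10 and 3, led by Igfbp2, Sdc1 and Nrep. Itga2b had the opposite order, at 1.75 and 4.45 CPM in clusters 11 and 1 and at 100.4, 163 and 37.8 CPM in clusters 8, 10 and 3. Itgb7 was itself among the 10 leading genes of cluster 11, although the clustering did not use it.

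Other members lay on one or the other side. Itga11 was at 140.1 CPM in cluster 1 and at 22.1 CPM in both clusters 8 and 10. Lamc3 was at 70.8 and 90.6 CPM in clusters 8 and 10 and at 0.703 CPM in cluster 1. Hspg2 was at 643, 784 and 678 CPM in clusters 8, 10 and 3 against 248 CPM in cluster 1, while its highest value was 836 CPM in cluster 13 and its lowest 224 CPM in cluster 2. Over the 13 clusters Spearman's rho was -0.86 between Itgb7 and Itga2b, 0.66 between Itgb7 and Itga11, 0.73 between Lamc3 and Itga2b and -0.65 between Itgb7 and Hspg2. Only these pairs, of genes described above, were computed, so the values restate the order already given. The points are clusters of 1 library, so these values describe it and carry no p.

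Nid1 was found in all 13 clusters. It ranged from 728 CPM in cluster 7, led by Fmo2 and F3, to 2279.8 CPM in cluster 5, led by Sult1e1. Cluster 7 was also the lowest of the 13 for Lama2, at 272 CPM, and for Lamb1, at 163 CPM, while its Lamb2 was at 367 CPM. Lamb1 was highest in cluster 10, at 804 CPM, where Lamb2 was lowest, at 97.5 CPM. Nid2 was at 153 CPM in cluster 9, led by Cilp and Thbs4, and at 6.68 CPM in cluster 1.

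**Figure D5:**
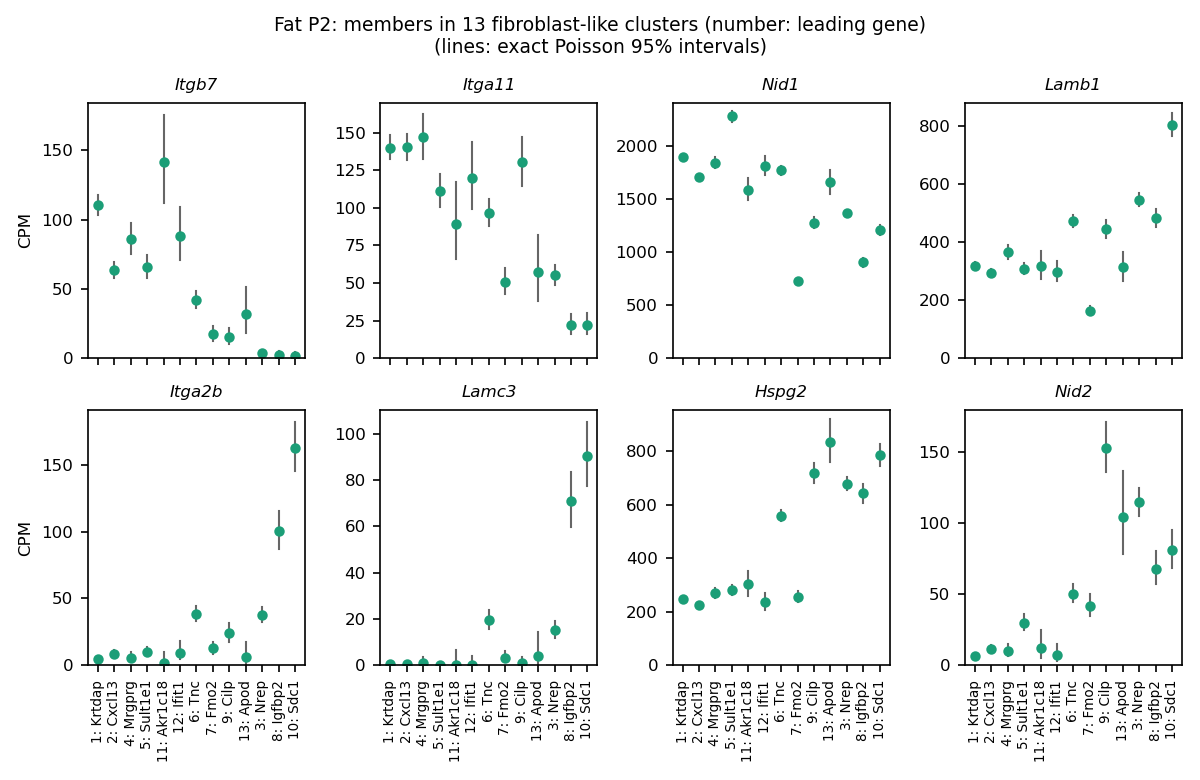
CPM of 8 members in the 13 fibroblast-like clusters of fat P2, each given by its number and leading gene, with exact Poisson 95% intervals as lines. Itgb7 is highest in clusters 11 and 1 and lowest in clusters 10, 8 and 3, and Itga2b and Lamc3 are highest in clusters 10 and 8.

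Small clusters of fat P2 held integrins that were low in its fibroblast-like cells. In 18 cells led by Acta2 and Myh11, genes of smooth muscle, Itga1 was at 466 CPM and Itga7, the alpha chain of the muscle laminin receptor, at 155 CPM. Itga7 was also at 99.5 CPM in 44 cells led by Nppc and Erfe with the muscle satellite genes Pax7 and Myf5 among their leading genes. In 15 endothelial-like cells Itga1 was at 278 CPM and Itga6 at 195 CPM. In 51 cells led by Cd74 and Ccl5, Itga4 was at 91.3 CPM. The endothelial-like cells were 0.190% of the library.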

How the data were processed

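Counts were deposited by the authors as matrices of UMIs per gene and barcode, with no normalization. Cell Ranger 3.1.0 and build mm10 are named in the submitters' processing notes, and the labels name a 10x 3′ kit. Strand handling and annotation release are not given in the sources used here. Feature and barcode lists (unit other) were deposited with them. UMIs of kept barcodes were summed per library and scaled to CPM. Doublets were left in, and removing the highest Scrublet scores was an alternative. Clusters used 2000 variable genes, 30 components, 15 neighbours and Leiden resolution 1 (scanpy 1.11.5, leidenalg 0.10.2). Clusters were named from the list with the largest share of markers at 100 CPM, at least 3 of them, and stayed unnamed where another list had more markers among the top 10 genes; this rule and the capillary groups were set after the counts were seen. TMM factors came from edgeR 4.0.16. Members, gene lists and comparisons were chosen with earlier results of these data known. Named were all members at 50 CPM in 1 library, leukocyte and platelet integrins at any level, and up to 4 genes per pathway list and, in most clusters, per cluster; a few further members were named after their values were seen. Coordinates are from GENCODE vM21 by gene ID. Results for 1 member and 1 small cluster are not reported here.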

Additional observations from a re-analysis of the deposited data

Results flagged for a closer look

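Hspg2 differed in direction between the tissues as labelled. Its log2 ratio of P1 over P2 was -3.66 in the libraries labelled fat and 2.13 in those labelled lung. With the P1 libraries exchanged it was 1.14 and -2.67. The difference was not tested, since each group is 1 library, and the P1 labels that set its direction went against the tissue markers.

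Itga1 differed in direction between the populations only as labelled. Its log2 ratio of lung over fat was 2.70 in P2 and -2.56 in P1 as labelled. With the P1 libraries exchanged the P1 ratio was 2.56, in the same direction as in P2. Between the fibroblast-like cells of the P2 libraries alone the ratio was 1.09, and of the 624 Itga1 UMIs of lung P2, 285 lay in mural-like and 190 in endothelial-like cells. That difference was not tested either.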

How the results depend on the processing

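Each of the 34 called log2 ratios between libraries was recomputed under 8 settings that can move it (other scalings, added CPM and cell sets). Of 272 such values, 169 stayed inside the counting interval, 103 left it and 0 changed sign. In 11 of them a ratio fell short of 4-fold, for Itga1 and Lamc3 (P2 lung over fat), Lamb1 and Itgb5 (lung P1 over P2) and Itga3 (P1 lung over fat). Exchanging the P1 libraries changed the sign of Hspg2 (1.14) and Itga2 (-0.27) for fat P1 over P2, Hspg2 (-2.67) and Itgb4 (-0.047) for lung P1 over P2, and, as the exchange negates the ratio, for P1 lung over fat of Lama4 (-2.62), Lamb1 (-2.96), Hspg2 (-4.80), Itga1 (2.56), Itga2 (2.58), Itga3 (2.16) and Itgb4 (-2.81). Counts of called members stayed within 1.5 times except at an 8-fold limit, where 0 were higher for lung P1 over P2, 2 higher and 0 lower for P2 lung over fat, and 1 higher and 0 lower for P1 lung over fat. TMM scaling moved the median of all genes from 0.38 to -0.05 (fat P1 over P2) and from 0.15 to -0.27 (P2 lung over fat), and median-of-ratios scaling moved it from -0.12 to 0.08 (lung P1 over P2) and from -0.31 to -0.08 (P1 lung over fat). The capillary counts, with alternatives chosen after seeing the data, stayed at 3 higher and at 2 to 3 lower. No paired analysis was possible because there is 1 library per group, and none could be left out. Depth limits P1 labelled lung most: 3 UMIs are 2.68 CPM there and 0.0688 CPM in fat P2.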
